A study of Caenorhabditis elegans with 20 samples.

Results

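The heterochronic genes of *Caenorhabditis elegans* set when each larval cell fate is reached, and 10 of them were followed here: *hbl-1*, *lin-14*, *lin-28*, *lin-29*, *lin-41*, *lin-42*, *lin-46*, *lin-66*, *dre-1* and *daf-12*. They are 10 of the 25528 genes named by a probe set with a single gene symbol, and each was read by 1 probe set. *hbl-1* was chosen by its measured values, because its transcript was lower in DMSO-treated *ahr-1(ju145)* worms than in DMSO-treated wild-type worms. The other 9 genes were named for their known role in developmental timing. No sequence is shown.

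Whole worms of 4 groups were measured on Affymetrix gene arrays, with 5 independent replicates per group. The groups were *ahr-1(ju145)* worms (strain CZ2485) with 100 µM curcumin, wild-type worms (strain N2) with 100 µM curcumin, *ahr-1(ju145)* worms with 0.1% DMSO, and wild-type worms with 0.1% DMSO. Curcumin was dissolved in DMSO, so that all groups received the solvent, and exposure lasted from the egg to day 3. *ahr-1* encodes the worm aryl hydrocarbon receptor, a ligand-regulated transcription factor in vertebrates, and *ju145* is 1 mutant allele studied in 1 strain. Values are log2 expression levels (RMA values), and a difference was called, or passed, at a limma adjusted p below 0.1 over all probe sets. Replicate 5 of *ahr-1(ju145)* with curcumin did not enter the fit because of its array quality, so that this group had 4 arrays and the fit 19 of 20.

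In the heterochronic pathway, early factors hold seam cells and the rest of the epidermis in larval programmes, and microRNAs then silence these factors in turn. LIN-14 and LIN-28 act first, HBL-1 and LIN-41 act later, and LIN-29 drives the switch of the epidermis to its adult state. HBL-1, the worm relative of the fly gap protein Hunchback, is a zinc finger transcription factor that is also known in embryos and in motor neurons. LIN-46 and LIN-66 restrain early factors, LIN-42 links the pathway to the molting cycle, DRE-1 marks proteins for degradation and DAF-12 couples timing to a steroid hormone. Since whole worms were lysed, fewer cells of a type and less RNA per cell cannot be told apart.

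The arrays differed little in general level, and the median log2 fold change over all 29317 probe sets was 0.01 for loss of *ahr-1* with curcumin and 0.02 with DMSO. The *ahr-1* probe set stood at 4.29 to 4.89 in curcumin-treated *ahr-1(ju145)* and at 4.86 to 5.17 in curcumin-treated wild-type. With DMSO it stood at 4.27 to 4.98 in *ahr-1(ju145)* and at 4.92 to 5.45 in wild-type. Its log2 fold changes of -0.43 (SE 0.15, adjusted p = 0.307) with curcumin and -0.34 (SE 0.14, adjusted p = 0.350) with DMSO did not pass limma. The authors describe *ju145* as a point mutation, and the transcript level does not measure the function of the protein. The 5 measured yolk protein genes averaged 13.06 to 13.24 in every array, a level of adult hermaphrodite transcripts that did not separate the groups.

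*hbl-1* had lower levels in *ahr-1(ju145)* than in wild-type worms with either treatment. With DMSO, the contrast that picked it, *hbl-1* lay at 8.28, 7.16, 7.54, 7.76 and 8.77 in *ahr-1(ju145)* replicates 1 to 5, against 10.24, 9.52, 9.44, 9.15 and 10.16 in wild-type replicates 1 to 5. All *ahr-1(ju145)* arrays were below all wild-type arrays, and the narrowest gap lay between replicate 5 of *ahr-1(ju145)* and replicate 4 of wild-type. The means were 7.90 ± 0.632 in *ahr-1(ju145)* and 9.70 ± 0.479 in wild-type (SD, n = 5 each). The log2 fold change was -1.80 (SE 0.34, 95% interval -2.51 to -1.09), or 3.48-fold lower, and is given without a test because these arrays chose the gene.

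The curcumin-treated worms share no array with the DMSO contrast, and *hbl-1* was tested there. The gene was chosen with results of all groups known, so this test is not independent of the choice. *hbl-1* stood at 6.84, 6.96, 6.56 and 7.37 in curcumin-treated *ahr-1(ju145)* replicates 1 to 4, against 8.66, 8.97, 7.95, 8.83 and 10.07 in wild-type replicates 1 to 5. Here too no array of one strain reached the range of the other. Means were 6.93 ± 0.335 in *ahr-1(ju145)* (SD, n = 4) and 8.89 ± 0.764 in wild-type (SD, n = 5). The log2 fold change was -1.96 (SE 0.36, 95% interval -2.72 to -1.21), which is 3.90-fold lower. With the error estimated over all 19 arrays, which include the DMSO arrays that chose the gene, the limma adjusted p was 0.0253. With the 9 curcumin arrays fitted alone it was 0.116. The exact two-sided permutation test over the 4 and 5 arrays gave p = 0.0159, where 0.00794 is the smallest p it can give. The array left out read 7.85, also below all wild-type arrays, and with it the log2 fold change was -1.78 (limma adjusted p = 0.0380).

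The call for *hbl-1* thus ended with the curcumin arrays alone, and it also ended when *ahr-1(ju145)* curcumin replicate 3 was left out (limma adjusted p = 0.120). Its direction was kept in each setting tried.

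**Figure D1:**
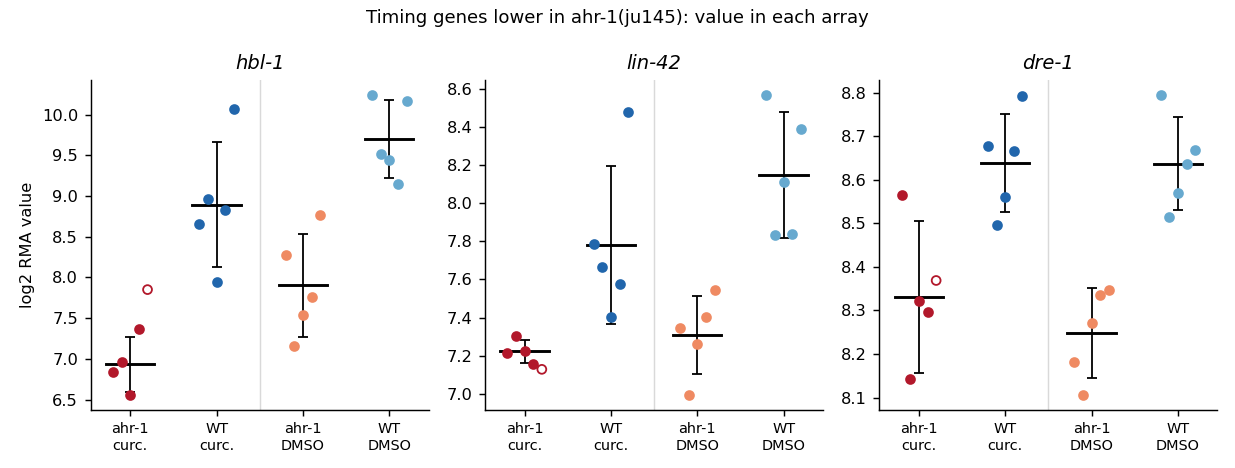
Log2 expression level of *hbl-1*, *lin-42* and *dre-1* in each array, with *ahr-1(ju145)* left of wild-type within each treatment and the group mean ± SD beside the points; each panel has its own axis and the open point is the array left out. The *hbl-1* points of *ahr-1(ju145)* lie between 6.56 and 8.77, and those of wild-type between 7.95 and 10.24.

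Across the 4 groups, the order of *hbl-1* means was 6.93 in curcumin-treated *ahr-1(ju145)*, 7.90 in DMSO-treated *ahr-1(ju145)*, 8.89 in curcumin-treated wild-type and 9.70 in DMSO-treated wild-type. Each group overlapped its neighbour in this order. Arrays of 1 group also differed more in *hbl-1* than in any of the other 9 genes in wild-type with curcumin, where its SD of 0.764 was followed by 0.412 for *lin-42*.

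*lin-42* and *dre-1* also had lower levels in *ahr-1(ju145)*. *lin-42* encodes the worm relative of the circadian protein Period, and its transcript is known to cycle once per molt. With DMSO, *lin-42* stood at 7.35, 7.0, 7.26, 7.40 and 7.54 in *ahr-1(ju145)*, against 8.57, 7.83, 8.11, 7.84 and 8.39 in wild-type. The strains did not overlap, and replicates 1 and 5 were the high arrays of wild-type. *lin-42* fell by 0.84 on the log2 scale (SE 0.17, 95% interval -1.20 to -0.48), which is 1.79-fold lower, with a limma adjusted p of 0.0325.

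With curcumin, *lin-42* stood at 7.21, 7.30, 7.22 and 7.16 in *ahr-1(ju145)*, against 7.78, 7.66, 7.41, 7.57 and 8.48 in wild-type. Again the strains did not overlap, while 1 wild-type array, replicate 5, lay well above the rest. The log2 fold change of -0.56 (SE 0.18, 95% interval -0.94 to -0.17) did not pass over all probe sets (limma adjusted p = 0.275).

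*dre-1* encodes the F-box subunit of an SCF ubiquitin ligase and is known to limit the time over which its substrates act. With DMSO, *dre-1* stood at 8.18, 8.11, 8.27, 8.33 and 8.35 in *ahr-1(ju145)*, against 8.80, 8.52, 8.57, 8.64 and 8.67 in wild-type. The strains did not overlap and each was narrow, with an SD of 0.103 in *ahr-1(ju145)* and 0.107 in wild-type. *dre-1* fell by 0.39 on the log2 scale (SE 0.08, 95% interval -0.56 to -0.22), which is 1.31-fold lower, with a limma adjusted p of 0.0353.

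With curcumin, *dre-1* stood at 8.56, 8.14, 8.32 and 8.30 in *ahr-1(ju145)*, against 8.68, 8.50, 8.56, 8.67 and 8.79 in wild-type. Replicate 1 of *ahr-1(ju145)* lay within the wild-type range and the other 3 arrays lay below it. The log2 fold change of -0.31 (SE 0.09, 95% interval -0.49 to -0.12) did not pass (limma adjusted p = 0.174). It passed in 1 of 22 alternatives, the replicate block (limma adjusted p = 0.0863).

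The calls for *lin-42* and *dre-1* with DMSO both ended without wild-type DMSO replicate 1, with limma adjusted p-values of 0.103 for *lin-42* and 0.115 for *dre-1*. Both genes varied with *hbl-1* between arrays, with Pearson r over the 19 arrays of 0.925 for *lin-42* and 0.737 for *dre-1*, so that they are not independent of the choice of *hbl-1*.

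The other 7 genes did not pass in either loss of *ahr-1*. Among the early factors, *lin-14* encodes a nuclear factor that binds DNA and is the founding target of the *lin-4* microRNA. With curcumin, *lin-14* stood at 6.83, 7.06, 7.08 and 7.02 in *ahr-1(ju145)*, against 6.77, 6.89, 6.88, 6.59 and 7.01 in wild-type. With DMSO it stood at 6.65, 6.85, 6.63, 7.10 and 5.98 in *ahr-1(ju145)*, against 7.06, 6.77, 6.64, 7.02 and 7.08 in wild-type. Both pairs overlapped, and *ahr-1(ju145)* DMSO replicate 5 was the lowest *lin-14* array. The log2 fold changes were 0.17 (SE 0.16, adjusted p = 0.833) with curcumin and -0.28 (SE 0.15, adjusted p = 0.543) with DMSO.

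*lin-28*, which encodes an RNA-binding protein that blocks maturation of *let-7*, averaged 6.65 ± 0.030 in *ahr-1(ju145)* (SD, n = 4) and 6.70 ± 0.170 in wild-type (SD, n = 5) with curcumin. With DMSO it averaged 6.66 ± 0.129 in *ahr-1(ju145)* and 6.80 ± 0.105 in wild-type (SD, n = 5 each). In DMSO, 4 of the 5 *ahr-1(ju145)* arrays lay below all wild-type arrays, yet the log2 fold change of -0.14 did not pass (limma adjusted p = 0.564).

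*lin-41* encodes a TRIM-NHL RNA-binding protein, a target of *let-7* that is also known in oocytes. Its means with curcumin were 11.83 ± 0.163 in *ahr-1(ju145)* (SD, n = 4) and 11.69 ± 0.106 in wild-type (SD, n = 5). With DMSO they were 11.84 ± 0.075 in *ahr-1(ju145)* and 11.70 ± 0.078 in wild-type (SD, n = 5 each). The log2 fold change was thus 0.14 with either treatment, on the opposite side of 0 to *hbl-1* (limma adjusted p = 0.651 with curcumin and 0.523 with DMSO).

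*lin-29* encodes the zinc finger factor of the larva-to-adult switch, and it had log2 fold changes of 0.14 (limma adjusted p = 0.801) with curcumin and 0.10 (limma adjusted p = 0.826) with DMSO. It averaged 7.64 ± 0.180 in *ahr-1(ju145)* (SD, n = 4) and 7.50 ± 0.186 in wild-type (SD, n = 5) with curcumin. With DMSO it averaged 7.47 ± 0.198 in *ahr-1(ju145)* and 7.38 ± 0.132 in wild-type (SD, n = 5 each). Of the 10 genes, *lin-29* ran most against *hbl-1* across the 19 arrays, with a Pearson r of -0.649.

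Among the genes that restrain the early factors, *lin-46* encodes a gephyrin-like scaffold protein known to act against HBL-1. It averaged 3.48 ± 0.211 in curcumin-treated *ahr-1(ju145)* (SD, n = 4) and 3.52 ± 0.163 in curcumin-treated wild-type (SD, n = 5). With DMSO it averaged 3.55 ± 0.140 in *ahr-1(ju145)* and 3.39 ± 0.103 in wild-type (SD, n = 5 each). The log2 fold change was -0.04 with curcumin (limma adjusted p = 0.955) and 0.16 with DMSO (limma adjusted p = 0.581), and its probe set read below 4 in every array.

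*lin-66*, known to lower LIN-28, averaged 11.17 ± 0.085 in *ahr-1(ju145)* (SD, n = 4) and 11.35 ± 0.165 in wild-type (SD, n = 5) with curcumin. With DMSO it averaged 11.33 ± 0.142 in *ahr-1(ju145)* and 11.46 ± 0.149 in wild-type (SD, n = 5 each). Both log2 fold changes were below 0, at -0.18 (limma adjusted p = 0.637) with curcumin and -0.13 (limma adjusted p = 0.646) with DMSO.

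*daf-12* encodes the nuclear receptor for the dafachronic acid hormones and acts on the *let-7* family. Its means were 8.06 ± 0.144 in *ahr-1(ju145)* (SD, n = 4) and 7.98 ± 0.114 in wild-type (SD, n = 5) with curcumin. With DMSO its means were 7.99 ± 0.104 in *ahr-1(ju145)* and 7.90 ± 0.172 in wild-type (SD, n = 5 each). The log2 fold changes of 0.08 with curcumin (limma adjusted p = 0.870) and 0.09 with DMSO (limma adjusted p = 0.777) did not pass.

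**Figure D2:**
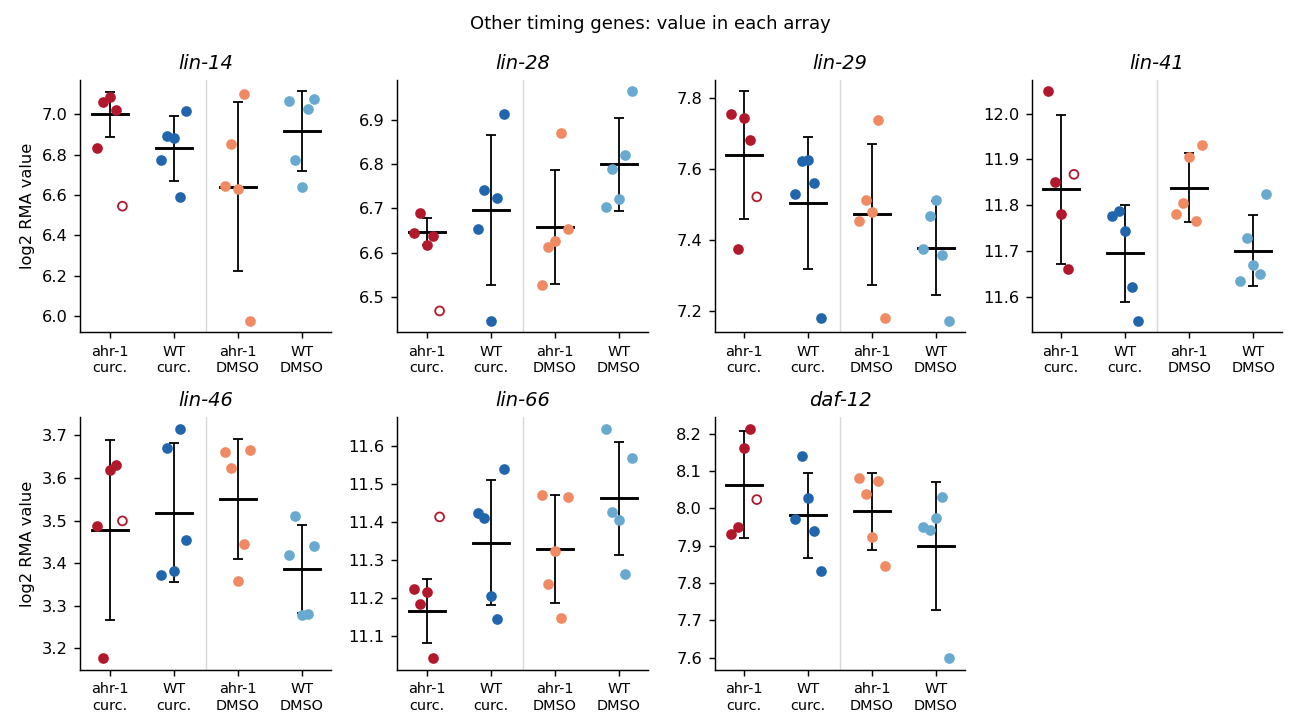
Log2 expression level of the 7 timing genes that did not pass in either loss of *ahr-1*, by array, with *ahr-1(ju145)* left of wild-type within each treatment and the group mean ± SD beside the points; the open point is the array left out. The strains overlap in each panel, and *lin-14* has its lowest array, 5.98, in DMSO-treated *ahr-1(ju145)*.

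Counted without *hbl-1*, which was chosen by its values, none of the other 9 genes was called by loss of *ahr-1* with curcumin. Their lowest limma adjusted p was 0.174. Over all probe sets 0.379% were called lower and 0.553% in either direction. Without adjustment 2 of the 9, *lin-42* and *dre-1*, were lower at a limma p below 0.05, where 4.54% of all probe sets were. Of the 9, 1 gene, *lin-42*, had no overlap between strains, a pattern found in 1.73% of all probe sets in this direction. The median log2 fold change of the 9 was -0.04, against 0.01 over all probe sets.

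With DMSO, 2 of the 9 genes besides *hbl-1* were called lower, *lin-42* and *dre-1*, and none was called higher. Over all probe sets 1.31% were called lower and 1.81% in either direction. DMSO arrays of the same replicate number deviated together (correlation 0.114 to 0.431 over probe sets), but whether they are pairs was not settled. With a replicate block in the fit the same 2 genes passed, while the count over all probe sets moved to 931, against 530 without it. The same 2 genes were those with no overlap between strains, a pattern found in 1.83% of all probe sets in this direction. The median of the 9 was -0.13, against 0.02 over all probe sets.

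The 2 losses of *ahr-1* share no array. The log2 fold changes had the same sign in both for 8 of the 10 genes, and for 63% of all probe sets. *lin-14* and *lin-46* were the 2 genes whose sign differed, and the sign of *hbl-1* with DMSO was fixed by its choice.

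**Figure D3:**
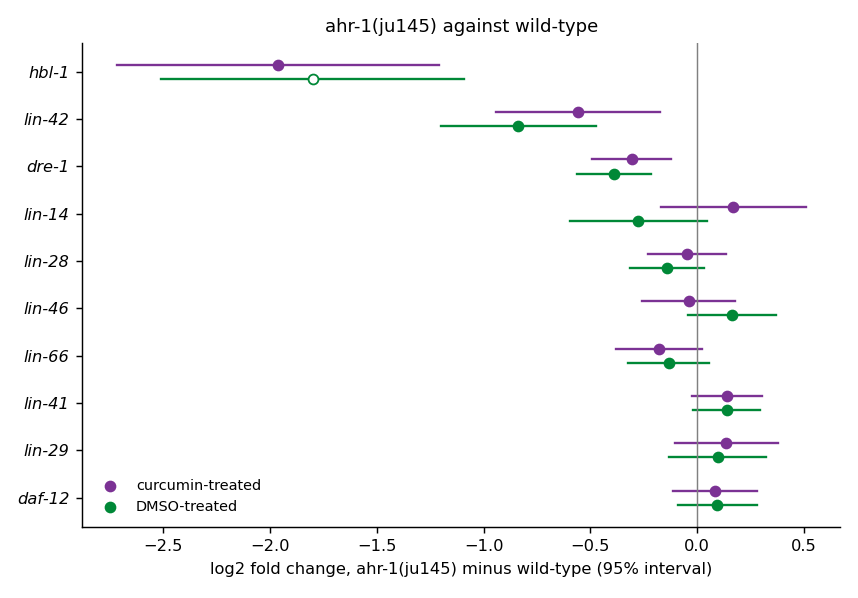
Log2 fold change of *ahr-1(ju145)* over wild-type for each of the 10 genes, with its 95% interval from limma, in curcumin-treated and in DMSO-treated worms; the open symbol is *hbl-1* with DMSO, which chose the gene. The intervals of *hbl-1*, *lin-42* and *dre-1* lie below 0 in both treatments, and those of the other 7 genes include 0.

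Curcumin was also compared with DMSO within each strain. For *hbl-1*, the log2 fold change of curcumin over DMSO was -0.97 (SE 0.36, 95% interval -1.72 to -0.22) in *ahr-1(ju145)* and -0.81 (SE 0.34, 95% interval -1.52 to -0.10) in wild-type. These values are descriptions, since the DMSO arrays chose the gene, and curcumin-treated and DMSO-treated arrays overlapped in both strains. Of the other 9 genes, none passed in *ahr-1(ju145)* with limma and 1 was below an unadjusted p of 0.05. Over all probe sets 0.0648% were called and 7.45% were below an unadjusted p of 0.05. That gene was *lin-14*, with a log2 fold change of 0.36 (SE 0.16, limma adjusted p = 0.649), and its lowest DMSO array was replicate 5. The other 8 genes lay between -0.16 for *lin-66* and 0.17 for *lin-29*.

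In wild-type, none of the 9 passed for curcumin with limma and 1 was below an unadjusted p of 0.05, while 0.143% of all probe sets were called and 6.49% were below an unadjusted p of 0.05. That gene was *lin-42*, with a log2 fold change of -0.37 (SE 0.17, limma adjusted p = 0.762), and 4 of its 5 curcumin arrays lay below all DMSO arrays. The other 8 genes lay between -0.12 for *lin-66* and 0.13 for *lin-46*.

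Whether curcumin acted differently in the strains was asked by the interaction, which is the curcumin effect in *ahr-1(ju145)* minus that in wild-type. No probe set of the whole array passed for it with limma, a share of 0%, although 3.36% were below an unadjusted p of 0.05. *hbl-1* had an interaction of -0.16 (SE 0.49), with a 95% interval of -1.20 to 0.87 on the log2 scale. *lin-14* had 0.44 (SE 0.22, 95% interval -0.02 to 0.91, limma adjusted p = 1).

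**Figure D4:**
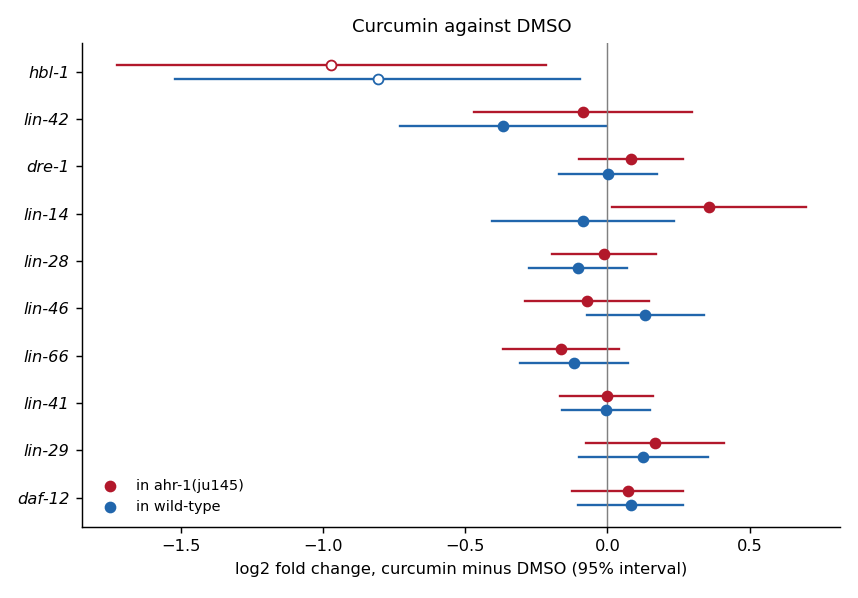
Log2 fold change of curcumin over DMSO for each of the 10 genes, with its 95% interval from limma, in *ahr-1(ju145)* and in wild-type worms; the open symbols are *hbl-1*, whose DMSO arrays chose it. *hbl-1* lies at -0.97 in *ahr-1(ju145)* and at -0.81 in wild-type, and the other intervals include 0 except those of *lin-14* in *ahr-1(ju145)* and *lin-42* in wild-type.

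The wider pathway was read through lists of genes with a known place in it. Some genes are in more than 1 of the lists used here and below, so their counts are not independent. Among them are *elt-1*, *elt-3*, *nhr-25*, *lin-22*, *unc-30* and *unc-55*. Over all probe sets, 0.379% were called lower with curcumin and 1.31% with DMSO. At an unadjusted p below 0.05, 4.54% were lower and 4.29% higher with curcumin, and 5.64% were lower and 5.51% higher with DMSO. Of the 6 timing microRNAs, among them *lin-4* and *let-7*, none was matched to a probe set named by 1 symbol. Of 15 measured genes of the microRNA machinery, 2 fell with DMSO and none passed with curcumin, where 3 were lower at an unadjusted p below 0.05, beside 1.31% of all probe sets called lower with DMSO and 4.54% lower at that unadjusted p with curcumin. *ain-1*, a GW182 family effector of silencing, fell by 0.42 on the log2 scale (SE 0.09, limma adjusted p = 0.0357) with DMSO. *alg-1*, the Argonaute that binds most microRNAs, fell by 0.39 (SE 0.09, limma adjusted p = 0.0551) with DMSO.

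Of 24 partners and outputs of the timing genes, 2 fell with DMSO and none passed with curcumin. At a limma unadjusted p below 0.05, 5 were lower and 1 higher with curcumin, beside 4.54% of all probe sets lower. With DMSO 7 were lower and 1 higher at that p, beside 5.64% lower. *blmp-1*, a zinc finger repressor and a known substrate of DRE-1, fell by 0.35 on the log2 scale (SE 0.08, limma adjusted p = 0.0478) with DMSO. *apl-1*, the worm relative of the amyloid precursor protein and a gene under heterochronic control, fell by 0.25 (SE 0.05, limma adjusted p = 0.0357) with DMSO. The median of the 24 was -0.14 with DMSO and -0.10 with curcumin.

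None of the 16 genes of the DAF-12 hormone pathway passed limma in either loss of *ahr-1*, and at an unadjusted p below 0.05 there was 1 lower with curcumin (4.54% of all probe sets) and 2 lower with DMSO (5.64%). Of 15 seam cell genes 1 fell with DMSO, *grh-1*, a Grainyhead family factor of the epidermis, at -0.58 (SE 0.16, limma adjusted p = 0.0951). None passed with curcumin, where 2 were lower at a limma unadjusted p below 0.05 (4.54% of all probe sets). With DMSO 5 of the 15 were lower at that p (5.64%), and in either loss 0 were higher. The 8 adult cuticle collagens, known outputs of the adult epidermal programme, had no gene past limma, nor any below an unadjusted p of 0.05, in either loss.

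Genes of the molt had the most calls among these lists. Of 24 measured molting genes, 5 fell with curcumin and 8 fell with DMSO, and none rose, beside 0.379% and 1.31% of all probe sets called lower. With curcumin, *fbn-1*, a fibrillin-like matrix gene, fell by 1.34 on the log2 scale (limma adjusted p = 0.0260), beside *mlt-11* at -1.51, *noah-2* at -1.38 and *noah-1* at -1.29 with adjusted p between 0.0637 and 0.0802. With DMSO, *acn-1*, which encodes a relative of angiotensin-converting enzyme, fell by 1.57 (limma adjusted p = 0.0197), beside *mlt-11* at -1.50, *mlt-8* at -1.37 and *noah-2* at -1.12. The median of the list was -0.18 with curcumin and -0.39 with DMSO.

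Other tissues and stages were read the same way, since *hbl-1* is known in embryos, epidermis and neurons. The mean level of the 24 molting genes was 6.35 to 6.57 in curcumin-treated *ahr-1(ju145)* and 6.58 to 7.32 in curcumin-treated wild-type. With DMSO it was 6.57 to 6.82 in *ahr-1(ju145)* and 7.05 to 7.44 in wild-type, so that the strains did not overlap with either treatment. The mean of 14 epidermis genes was 7.48 to 7.62 in *ahr-1(ju145)* and 7.58 to 7.94 in wild-type with curcumin. With DMSO it was 7.60 to 7.75 in *ahr-1(ju145)* and 7.85 to 8.07 in wild-type.

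In the epidermis list, 2 of 14 genes fell with curcumin and 3 with DMSO, and none rose, beside the same 0.379% and 1.31% of all probe sets. *ajm-1*, of the apical junction, fell by 0.34 on the log2 scale (limma adjusted p = 0.0589) with curcumin and by 0.46 (limma adjusted p = 0.00303) with DMSO. The cuticle collagen gene *dpy-7* fell by 0.71 (limma adjusted p = 0.0693) with curcumin and by 0.60 (limma adjusted p = 0.0603) with DMSO. *dlg-1*, also of the apical junction, fell by 0.56 (limma adjusted p = 0.0503) with DMSO.

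The mean of 26 embryo markers was 5.14 to 5.26 in *ahr-1(ju145)* and 5.07 to 5.44 in wild-type with curcumin, and 5.18 to 5.50 in *ahr-1(ju145)* and 5.27 to 5.55 in wild-type with DMSO. With curcumin 5 of the 26 were lower and 0 higher at a limma unadjusted p below 0.05, beside 4.54% and 4.29% of all probe sets. With DMSO 5 were lower and 1 higher, beside 5.64% and 5.51%. The posterior Hox gene *nob-1* fell by 0.35 (limma adjusted p = 0.0448) with curcumin and by 0.26 (limma adjusted p = 0.0794) with DMSO. *med-2*, a GATA factor of the early embryo, rose by 0.65 (limma adjusted p = 0.0839) with DMSO. None of 20 oocyte, 13 sperm, 16 neuron or 5 yolk genes passed limma in either loss. At an unadjusted p below 0.05, the neuron list had 1 lower and 1 higher gene with curcumin and 1 lower gene with DMSO, the oocyte and sperm lists had 1 higher gene each with DMSO, and the yolk list had none. Of the 21 results of list genes named here, only *ajm-1* and *acn-1* with DMSO passed with each array left out, and the highest adjusted p of the other 19 lay between 0.115 and 0.244. All 21 ended with the epidermis or the molting covariate, among them *ajm-1* and *acn-1*, and the 7 with curcumin also ended with the compared groups alone. The named epidermis and molting genes are part of the mean of their own list, and both means differed between the strains. The covariate fits therefore cannot decide whether these genes changed.

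With the mean of the epidermis list in the fit, *hbl-1* had a log2 fold change of -1.16 for loss of *ahr-1* with curcumin (limma adjusted p = 0.755) and of -0.92 with DMSO. With the mean of the molting list in the fit these values were -0.79 (limma adjusted p = 0.454) with curcumin and -0.46 with DMSO. With the mean of the embryo markers they were -1.65 (limma adjusted p = 0.0578) and -1.63. How well these markers follow later embryos within the worms was not tested, so this fit cannot decide the part of embryo content. For *lin-42* with DMSO the log2 fold change was -0.35 with the epidermis list (limma adjusted p = 0.822), -0.19 with the molting list (limma adjusted p = 0.71) and -0.76 with the embryo markers (limma adjusted p = 0.0238).

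For *dre-1* with DMSO the log2 fold change was -0.36 with the epidermis list (limma adjusted p = 0.633), -0.29 with the molting list (limma adjusted p = 0.378) and -0.38 with the embryo markers (limma adjusted p = 0.0407). The means of the molting and epidermis lists differed between the strains, so that these fits separate list and strain poorly, and over all probe sets the loss with curcumin had 21 calls with the molting list and 16 with the epidermis list, against 162 without them. The loss with DMSO had 16 calls with the molting list and 13 with the epidermis list, against 530 without them.

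**Figure D5:**
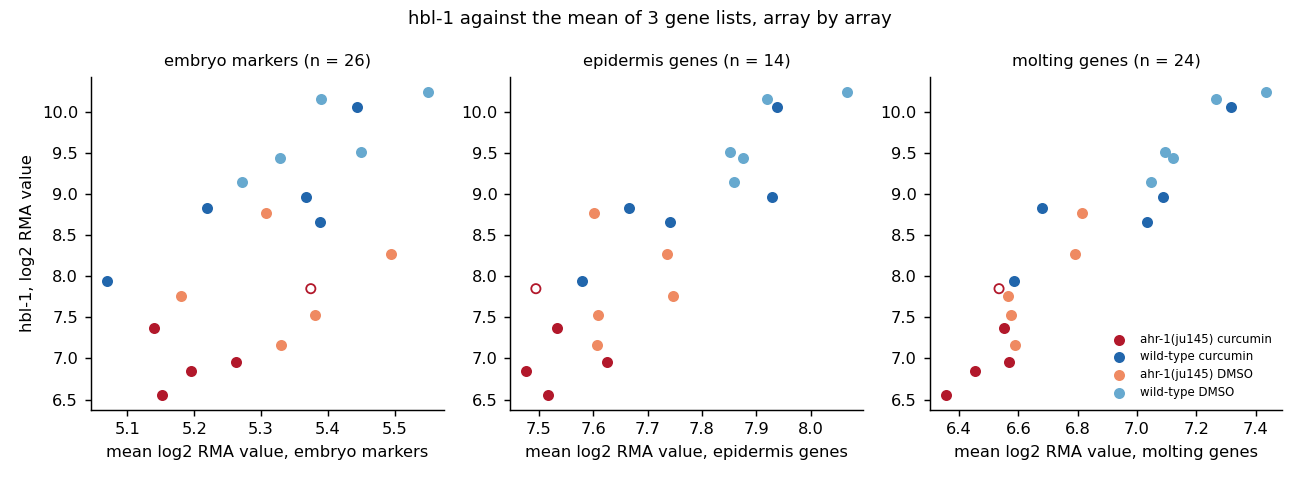
Log2 expression level of *hbl-1* in each array, on the vertical axis, against the mean log2 level of 26 embryo markers, 14 epidermis genes and 24 molting genes, with 1 colour per group and an open point for the array left out. *ahr-1(ju145)* arrays lie at the low end of the molting axis, between 6.35 and 6.82, where wild-type arrays lie between 6.58 and 7.44.

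The transcripts that followed *hbl-1* most closely over the 19 arrays were *dyf-7* (Pearson r 0.991), *dpy-3* (0.987), *K10D3.4* (0.985), *egl-46* (0.984) and *syd-9* (0.983), out of 25599 probe sets with 1 symbol. *dyf-7* anchors the dendrite tips of sensory neurons, *dpy-3* is a cuticle collagen gene, and *egl-46* and *syd-9* encode zinc finger proteins of neurons. These values are descriptions over arrays that share 4 groups, and differences between groups enter them. After each group's mean was taken out, *dyf-7* (0.971) and *dpy-3* (0.970) were again first, followed by *R09E10.5* (0.948), *R03H10.2* (0.945) and *egl-46* (0.944).

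Of the timing genes, *lin-42* came nearest to *hbl-1*, with rank 127 of these probe sets by level (Pearson r 0.925) and an r of 0.843 by deviation from the group mean. *lin-66*, which was not called, came next, with rank 631 by level (r 0.770) and rank 641 by deviation (r 0.667). *dre-1* held rank 761 by level (r 0.737) and rank 2991 by deviation (r 0.439). *lin-28*, also not called, lay behind *dre-1* by level but ahead of it by deviation, at rank 2556 (r 0.467). *lin-42* thus followed *hbl-1* also between replicates of 1 group, and *lin-66*, *lin-28* and *dre-1* did so less closely.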

How the data were processed

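Total RNA of whole worms was hybridised to *C. elegans* Gene 1.0 ST arrays, 5 per group. The deposited table holds log2 expression values that the authors made with the oligo package of R, by background correction, normalization and summarization (RMA); no source used here names the annotation build. RMA makes arrays comparable within a probe set, so levels were not compared between genes. The number of arrays limits the precision. The authors' comparison tables, which hold fold changes and p-values of called probe sets, were not used. Other assays were not analysed here.

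All 29317 probe sets were fitted in limma 3.58.1 (R 4.3.3) with 4 group means and 19 arrays. *ahr-1(ju145)* curcumin replicate 5 was left out, as in the methods. P-values were adjusted by Benjamini-Hochberg over all probe sets and called below 0.1, the threshold of the methods; results with a stricter 0.05 are in the closing section. Probe set names came from the platform annotation: 25600 had 1 gene symbol, 592 several and 3125 none; the *lin-29* probe set repeats that symbol with 2 gene identifiers. Besides the 10 timing genes, up to 4 passing genes of each list with the largest change, and the 5 genes most like *hbl-1* by each measure, were named. The 10 genes and the lists were chosen with earlier results of these data known. The fit was tested on simulated data. Same-numbered DMSO arrays deviated together for each of the 5 replicate numbers (correlation 0.114 to 0.431 over probe sets). The main fit had no term for replicate, so its p-values are not paired. A replicate block over all 19 arrays was fitted as an alternative.

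Alternatives were 20 arrays, the compared groups alone, a replicate block, array weights, further quantile normalization, median centring, a trended and robust fit, leaving out dim or unnamed probe sets, embryo markers as a covariate, and each array left out. The epidermis and molting covariates were added after seeing the data.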

Additional observations from a re-analysis of the deposited data

Results flagged for a closer look

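Within each group, the highest and the lowest array of each of the 10 genes were set against the rest of the group, and 2 of 40 group checks stood out, where chance gives about 1 in 20. *lin-29* read 7.18 in wild-type curcumin replicate 5, the lowest of its group and far from the nearest other array for a group of 5. *daf-12* read 7.60 in wild-type DMSO replicate 5, likewise the lowest of its group.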

How the results depend on the processing

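For loss of *ahr-1* with curcumin, the adjusted p of *hbl-1* was 0.116 with the compared groups alone, 0.755 with the epidermis covariate and 0.454 with the molting covariate, and 0.00722 to 0.120 with each array left out. The genes called there, with *hbl-1* counted, numbered 0, 0 and 0 in the first 3 of these settings. With arrays left out they numbered 0 to 1 (0 without *ahr-1(ju145)* curcumin replicate 3). With the replicate block they numbered 2, where *dre-1* (limma adjusted p = 0.0863) joined *hbl-1*. In this comparison each of the 4 same-numbered arrays correlated best with its own number (correlation 0.084 to 0.229 over probe sets). Whether they are pairs was not settled. The block moved the calls over all probe sets to 368, against 162. For loss with DMSO, 2 of the 9 genes besides *hbl-1* were called, 0 with the epidermis covariate, 0 with the molting covariate, and 0 to 2 with arrays left out (0 without wild-type DMSO replicate 1).

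Over all probe sets, leaving out 1 array gave 47 to 342 calls with curcumin and 141 to 556 with DMSO. The compared groups alone gave 41 with curcumin, of which 36.6% were lower, against 68.5% in the full fit. A threshold of 0.05 gave 61 with curcumin and 242 with DMSO. For curcumin in *ahr-1(ju145)* the block gave 67 calls, against 19, and in wild-type 219, against 42. Quantile normalization left 112 calls for loss with curcumin, of which 60.7% were lower, and the single-symbol probe sets alone 116, of which 79.3% were lower. Embryo markers as a covariate left 103, of which 55.3% were lower.

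Of 1206 values of the 10 genes under alternatives, 75 changed sign, and 0 of these were past the threshold before or after. On the log2 scale, those of loss with curcumin were *lin-28* (0.086 with the epidermis covariate, 0.061 with the molting covariate) and, with the molting covariate, *lin-29* (-0.11), *lin-42* (0.010), *lin-66* (0.092) and *daf-12* (-0.00075). With arrays left out *lin-28* ranged over -0.11 to 0.0060 and *lin-46* over -0.091 to 0.060 there. Those of loss with DMSO were *lin-28* (0.0052), *lin-29* (-0.016) and *lin-66* (0.053) with the epidermis covariate, and *lin-29* (-0.19), *lin-66* (0.18) and *daf-12* (-0.0018) with the molting covariate. For curcumin in wild-type *lin-66* was 0.032 with the molting covariate. *noah-2*, called for loss with DMSO, had a log2 fold change of 0.15 with the molting covariate, a list that holds this gene. The remaining sign changes were of values for curcumin or the interaction that did not pass, the farthest from 0 after the change being 0.15 for *lin-42*, curcumin in *ahr-1(ju145)*, with the epidermis covariate.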
